A study of Mus musculus with 18 samples.

Results

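Chemokines are small secreted proteins that guide leukocytes, and their receptors are membrane proteins that couple to G proteins of the inhibitory class and steer a cell up a chemokine gradient. In adipose tissue of obese mice they are known for bringing in monocytes and T cells, and in bone marrow for holding and releasing blood cells. Atypical receptors bind chemokines without coupling to G proteins and mostly remove or transport them. The genes described here were found by name: every gene symbol that starts with Ccl, Ccr, Cxcl or Cxcr and goes on with a number, together with Cx3cl1, Cx3cr1, Pf4, Ppbp and Ackr1 to Ackr4. The rule found 59 genes, 38 ligands and 21 receptors, among 46983 gene names in the deposited count tables.

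The study concerns glutamine, skeletal strength and fitness in obese mice, per its title. All 18 libraries came from male C57BL/6J mice whose library names carry HFD, and no age, dose or duration is given in the labels. The adipose HFD + glutamine group had 5 libraries and the adipose HFD group 4, with titles that begin mAT-MSC VAT. The bone marrow HFD + glutamine group had 5 libraries and the bone marrow HFD group 4, titled mBMSC. Each title holds a pair of numbers, written here as 4_6 and so on. One bone marrow column carries a pair that no title holds, and it is called the unnumbered glutamine library. The labels do not say that the libraries of a group came from separate animals, so the p-values measure only the spread between these libraries, which may be technical.

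Total counts lay between 35871168 and 59529238 in the adipose libraries, and between 13970788 and 37984603 in the bone marrow libraries. Levels are given as CPM, the counts of a gene for each 1000000 counts of its library. The libraries hold tags near the 3′ end of transcripts, so levels of different genes were set side by side without a length correction. Counts may hold several reads of 1 molecule, so such comparisons between genes are approximate. Marker genes of several other cell types were present in both tissues. The 10 macrophage markers summed to 335 to 767 CPM in adipose glutamine libraries and 678 to 1881 CPM in adipose HFD libraries. In bone marrow they summed to 227 to 1608 CPM with glutamine and 653 to 1588 CPM with HFD alone. Dendritic and mesothelial markers summed to at most 0.215 and 2.15 CPM in any bone marrow library. The 8 neutrophil markers summed to 45.7 to 277 CPM in adipose, against 2698 to 54233 CPM in bone marrow. Ly6g and Cd79a, defining markers of neutrophils and B cells, were listed at 0 in all 18 libraries. Stromal markers summed to a mean of 27686 CPM in adipose glutamine and 26580 CPM in adipose HFD libraries, and to 160632 CPM in bone marrow glutamine and 185337 CPM in bone marrow HFD libraries. Of these 7 markers 2 were called higher in adipose than in bone marrow and 2 lower. Their log2 fold changes ran from -6.11 for Col1a1 to 3.06 for Thy1, so the sums do not measure the share of stromal cells. With mixed cells in the RNA, fewer cells of a type and less RNA per cell cannot be told apart.

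Many of these genes lie side by side in the genome (GRCm38). The ligands Ccl2, Ccl7, Ccl11, Ccl12, Ccl8 and Ccl1 lay on chromosome 11 from 82035571 to 82305690, and Ccl5, Ccl9, Ccl6, Ccl3 and Ccl4 on the same chromosome from 83525778 to 83664683. On chromosome 5, Cxcl5, Ppbp, Pf4, Cxcl3, Cxcl15, Cxcl1 and Cxcl2 lay from 90759360 to 90905938, and Cxcl9, Cxcl10 and Cxcl11 from 92321347 to 92365485. On chromosome 9, the receptor genes Ccr9, Cxcr6, Ccr1, Ccr3 and Ccr2 lay from 123678439 to 124113557. The gene with the highest adipose level, Ackr3, lay alone on chromosome 1 from 90203980 to 90216751.

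Promoter windows were read for 44 of the 59 genes from RefSeq (build GRCm38.p6), each with 250 bases before and 50 after the annotated start. A kB-type motif, GGGA and TTCC with any 2 bases between them, written for factors of the NF-kB family, was found on either strand in 6 of 51 windows of these genes (11.8%), against 1.47% of 32851 windows of all genes. The 6 were Ccl1, Ccr3, Cxcl1, Cxcl2, Cxcl3 and Cxcl10. An ISRE-type motif of interferon response, GAAA and GAAA with any 2 bases between them, was found in 3 of the 51 windows (5.88%), against 3.44% of all windows. An AP-1-type motif, TGANTCA, was found in 10 windows (19.6%), against 7.81% of all. The windows of the 3 neighbouring ligands Cxcl1, Cxcl2 and Cxcl3 and of Cxcl10 are printed because the first 2 and Cxcl10 were among the highest adipose ligands while Cxcl3 was near 0. Each line gives the 220 bases before the start, 5′ to 3′ on the gene's strand, with the motifs in capitals. The capitals in the first 3 hold the kB-type motif on both strands in overlap, and those of Cxcl10 hold ISRE-type, kB-type and AP-1-type motifs in that order.
Cxcl1: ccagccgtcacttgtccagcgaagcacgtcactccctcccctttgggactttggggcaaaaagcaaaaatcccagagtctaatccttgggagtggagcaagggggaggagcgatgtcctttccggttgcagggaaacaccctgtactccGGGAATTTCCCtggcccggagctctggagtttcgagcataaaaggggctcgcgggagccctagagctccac
Cxcl2: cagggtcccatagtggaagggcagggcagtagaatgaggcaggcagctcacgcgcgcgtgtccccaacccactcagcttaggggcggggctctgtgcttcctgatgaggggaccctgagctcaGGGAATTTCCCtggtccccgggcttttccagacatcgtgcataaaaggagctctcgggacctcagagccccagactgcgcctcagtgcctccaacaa
Cxcl3: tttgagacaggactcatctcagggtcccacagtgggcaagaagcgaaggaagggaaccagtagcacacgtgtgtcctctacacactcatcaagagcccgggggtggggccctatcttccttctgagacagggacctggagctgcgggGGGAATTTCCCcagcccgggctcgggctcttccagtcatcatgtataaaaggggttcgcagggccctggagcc
Cxcl10: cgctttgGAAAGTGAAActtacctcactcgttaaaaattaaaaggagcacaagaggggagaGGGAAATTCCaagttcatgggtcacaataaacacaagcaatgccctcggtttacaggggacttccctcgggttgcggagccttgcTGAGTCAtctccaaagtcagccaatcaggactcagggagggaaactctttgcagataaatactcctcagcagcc
The coordinates were chr5:90891025-90891244 for Cxcl1, chr5:90903679-90903898 for Cxcl2 and chr5:90785881-90786100 for Cxcl3, all on the plus strand, and chr5:92348890-92349109 on the minus strand for Cxcl10. Cxcl1, Cxcl2 and Cxcl3 carried the same capital letters, first found at positions -71, -97 and -73 from the start. A match describes letters in a window and not a binding site.

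In adipose, 49 of the 59 genes reached 100 counts in at least 1 library and 23 did so in all 9. In bone marrow 19 reached 100 counts in some library and none did in all 9. Genes listed at 0 in every adipose library were Ccl20, Ccl21b, Ccl26, Ccl27b, Ccr8, Cxcl15, Cxcl17 and Cxcr1, and these 8 were also at 0 in bone marrow, where 13 were at 0. Ccl21b and Ccl27b have near-identical copies, so reads from them could have been lost or split in counting. The summed level of all 59 genes averaged 2385 ± 677 CPM in adipose glutamine and 2879 ± 911 CPM in adipose HFD libraries (SD, n = 5 and 4). It averaged 707 ± 358 CPM in bone marrow glutamine and 686 ± 617 CPM in bone marrow HFD libraries (SD, n = 5 and 4).

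**Figure D1:**
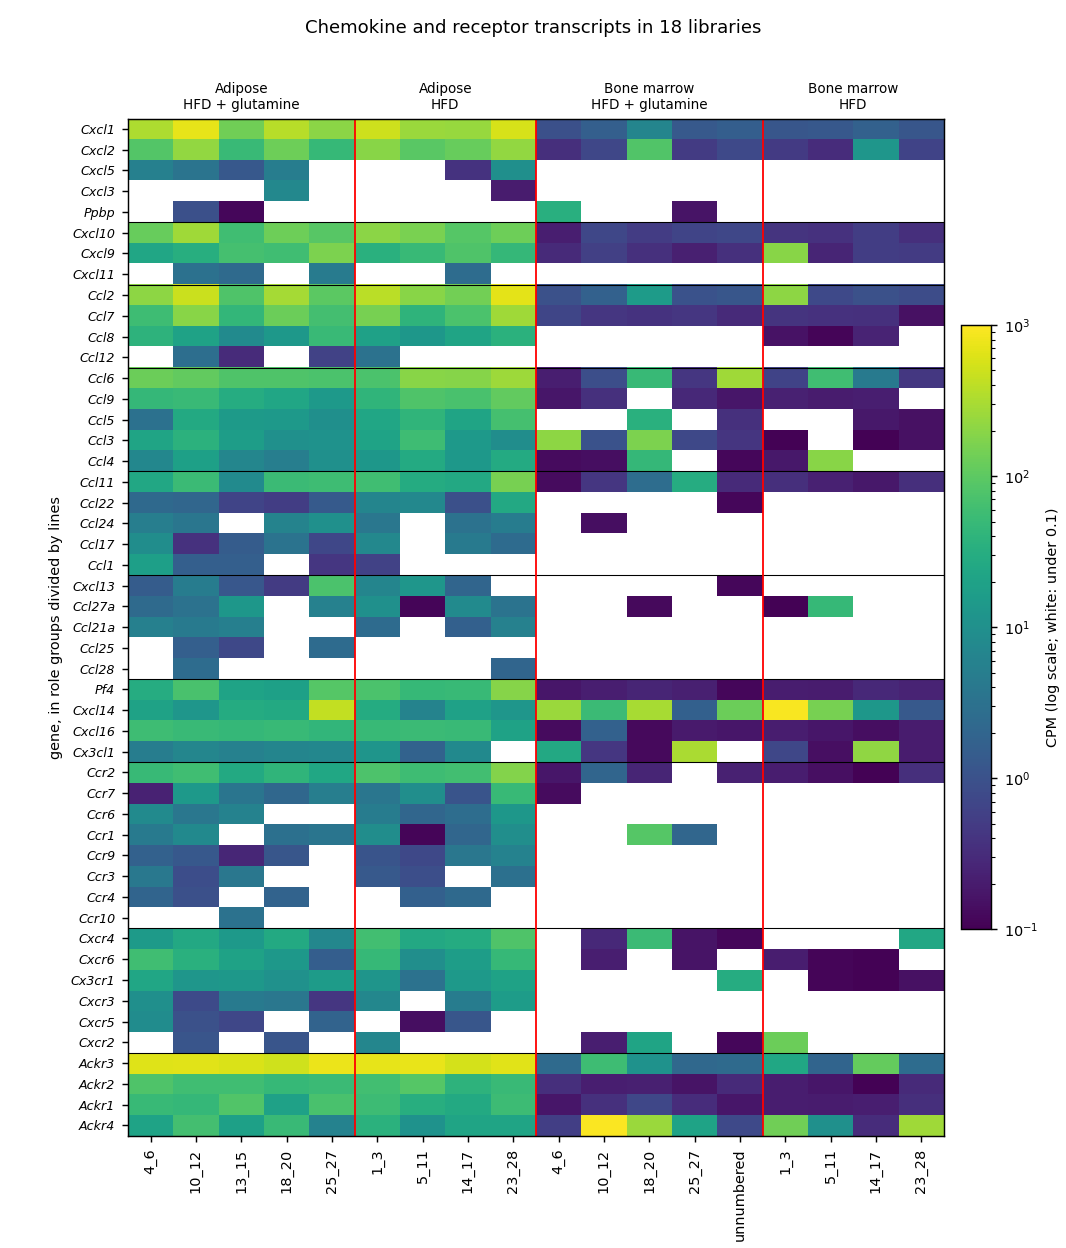
Level of 49 genes (down the page, in role groups) in 18 libraries (across, by group), as CPM on a log colour scale with white for values under 0.1. Adipose libraries share most genes, while bone marrow columns hold single bright cells, such as Ackr4 at 938 CPM in glutamine library 10_12.

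In adipose the highest gene was Ackr3, an atypical receptor that scavenges chemokines and is known in stromal and vascular cells. Ackr3 had 644, 667, 585, 522 and 757 CPM in the glutamine libraries 4_6, 10_12, 13_15, 18_20 and 25_27, against 714, 742, 558 and 655 CPM in the HFD libraries 1_3, 5_11, 14_17 and 23_28. Later sentences on adipose keep this order of libraries. The groups overlapped, and the highest library was only 1.45-fold above the lowest. Its log2 fold change with glutamine was -0.094 ± 0.168, and each value in parentheses after a gene's levels is such a log2 fold change ± SE. Of all genes tested in adipose, 1.09% had a dispersion as low as that of Ackr3 or lower.

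The other 3 atypical receptors were lower. Ackr2, which takes up inflammatory CC chemokines, had 80.4, 58.4, 59.1, 48.5 and 53.7 CPM with glutamine, against 61.0, 86.8, 38.1 and 52.3 CPM with HFD alone (log2 fold change -0.015 ± 0.282; 0.0025, 0.062, 0.027 and 0.24 without library 10_12, 18_20, 25_27 or 5_11). Ackr1, a carrier of chemokines across vessel walls, had 50.3, 45.8, 82.1, 19.3 and 71.6 CPM with glutamine, against 55.7, 32.2, 26.8 and 56.2 CPM with HFD alone (0.32 ± 0.396). Ackr1 overlaps Cadm3 on the same strand, and its reads may be shared. Ackr4, which removes the homing chemokines of lymph nodes, had 20.7, 64.2, 18.9, 52.0 and 5.89 CPM with glutamine, against 35.3, 11.0, 21.4 and 21.9 CPM with HFD alone (0.50 ± 0.581). Groups overlapped for all 3, and none passed the test.

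No chemokine or receptor gene passed the test for a change with glutamine in adipose. Of 44 genes that passed the filter on low counts, 0 had an edgeR adjusted p under 0.05, and the lowest adjusted p was 1.00. Over all 15114 genes tested the share called was 0%. At an unadjusted p under 0.05 there were 7 of the 44 (15.9%), against 4.13% of all genes tested. Of these 7, 6 were lower with glutamine and 1 higher, against 2.27% of all genes lower and 1.86% higher. DESeq2 and limma-voom also called 0. No gene of the 44 had groups without overlap, against 1.66% of all genes. Fold changes were below 0 for 28 of the 44 (63.6%), against 51.4% of all genes, and the median log2 fold change was -0.18, against -0.017 over all genes. Without HFD library 23_28 the median was -0.053 and 25 of 46 genes were below 0. Without HFD library 1_3 it was -0.044 and 24 of 45 were below 0. Leaving out 1 library gave medians from -0.45, without glutamine library 10_12, to that -0.044. The counts describe only the genes that passed the filter.

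The 6 genes that were lower at an unadjusted p under 0.05 were the receptors Ccr2 and Cxcr4 and the ligands Ccl5, Ccl6, Ccl9 and Ccl22. Ccr2, the receptor by which monocytes leave the marrow and enter fat, had 48.8, 60.3, 26.6, 42.0 and 24.0 CPM with glutamine, against 75.9, 57.4, 62.0 and 183 CPM with HFD alone. The log2 fold change was -1.25 ± 0.382, or -0.71 without HFD library 23_28, and the groups overlapped only between glutamine library 10_12 and HFD library 5_11. Cxcr4, which retains blood cells in the marrow and is carried by many leukocytes, had 15.0, 26.3, 14.1, 27.0 and 7.16 CPM with glutamine, against 61.3, 26.0, 28.6 and 79.3 CPM with HFD alone. Its log2 fold change was -1.47 ± 0.456. Again the lowest HFD library lay just below the highest glutamine libraries. Cxcr6, a receptor of tissue T cells for CXCL16, had 59.7, 34.0, 20.3, 13.5 and 1.57 CPM with glutamine, against 47.3, 9.39, 16.7 and 47.9 CPM with HFD alone (-0.24 ± 0.746; 0.067, 0.043 and 0.071 without library 25_27, 1_3 or 23_28). The groups overlapped over nearly the whole range. Of 8 CC receptors tested, 7 had a fold change below 0, with a median log2 fold change of -0.94, and of 5 CXC and CX3C receptors 3 did.

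All 5 ligands grouped as inflammatory CC chemokines that act on macrophages and effector T cells (Ccl3, Ccl4, Ccl5, Ccl6 and Ccl9) had fold changes below 0, with a median log2 fold change of -1.13. Ccl6, a CC chemokine of rodent macrophages, had 127, 109, 79.3, 78.5 and 73.5 CPM with glutamine, against 73.5, 195, 188 and 259 CPM with HFD alone (-0.96 ± 0.310). HFD library 1_3 lay at the level of the lowest glutamine library and the other 3 HFD libraries lay above all 5. Ccl9, another CCR1 ligand of rodents, had 46.6, 51.1, 29.5, 23.3 and 14.1 CPM with glutamine, against 41.1, 78.6, 71.1 and 110 CPM with HFD alone (-1.21 ± 0.389). Here too only HFD library 1_3 fell among the glutamine libraries. Ccl5, which draws effector T cells, had 3.10, 27.3, 15.2, 14.4 and 9.74 CPM with glutamine, against 23.4, 42.0, 21.8 and 65.6 CPM with HFD alone (-1.49 ± 0.551). Glutamine library 10_12 was the only one to overlap the HFD group. Ccl4, which macrophages and T cells release, had 7.06, 18.5, 6.90, 5.20 and 10.2 CPM with glutamine, against 13.3, 27.4, 13.7 and 27.4 CPM with HFD alone (-1.13 ± 0.546). The overlap again came from glutamine library 10_12. Ccl3, its neighbour on chromosome 11, had 21.9, 37.8, 16.7, 10.1 and 10.8 CPM with glutamine, against 21.0, 58.1, 14.3 and 9.07 CPM with HFD alone (-0.43 ± 0.580). Without HFD library 5_11 its fold change was 0.39, so that not all 5 were then below 0.

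Macrophage markers were also at lower values with glutamine. All 10 markers of the list had a fold change below 0 in adipose, 6 of them with an unadjusted p under 0.05 and none called, and their sum averaged 525.5 ± 178 CPM with glutamine and 1130 ± 542 CPM with HFD alone (SD, n = 5 and 4). Dendritic cell markers summed to 9.17 to 29.1 CPM with glutamine and 24.1 to 61.0 CPM with HFD alone, and B cell markers to 178 to 1073 CPM with glutamine and 485 to 3303 CPM with HFD alone. T and NK cell markers summed to 28.5 to 82.8 CPM with glutamine and 37.4 to 176 CPM with HFD alone. HFD library 23_28 had the highest sum of macrophage, B cell and T and NK cell markers in adipose, and it was the highest of the 9 libraries for 9 of the 23 genes with 100 counts in each: Ccl2, Ccl5, Ccl6, Ccl7, Ccl9, Ccl11, Ccr2, Cxcr4 and Pf4. The part of these cells in the fold changes was not tested.

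**Figure D2:**
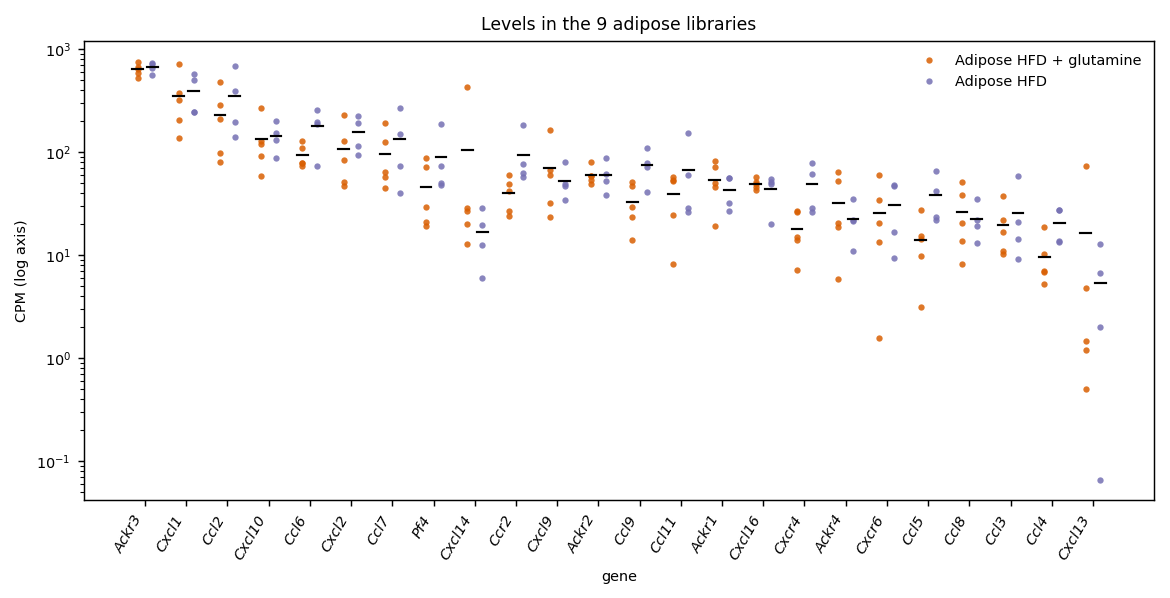
CPM (log axis) of 24 genes in the 9 adipose libraries, with 1 point per library and a bar at the group mean, glutamine left of HFD. Ackr3 forms a tight group of points from 522 to 757 CPM, while Cxcl14 and Cxcl13 each have 1 glutamine library, 25_27, far above the rest.

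Ligands of CCR2 recruit monocytes and were among the highest ligands in adipose. Ccl2, the main monocyte attractant of fat, had 212, 479, 79.5, 285 and 97.8 CPM with glutamine, against 392, 196, 139 and 681 CPM with HFD alone (-0.64 ± 0.515; -0.100 without HFD library 23_28). Ccl7, a neighbouring CCR2 ligand, had 57.8, 192, 44.5, 126 and 63.7 CPM with glutamine, against 151, 39.9, 74.1 and 268 CPM with HFD alone (-0.49 ± 0.509; 0.11 without HFD library 23_28). For both genes the groups overlapped, with HFD library 23_28 the highest. Ccl8 lies in the same cluster, although mouse CCL8 is known to act mainly through CCR8. Ccl8 had 38.3, 20.4, 8.21, 13.7 and 51.6 CPM with glutamine, against 19.2, 13.0, 21.8 and 35.3 CPM with HFD alone (0.23 ± 0.530; -0.15 without glutamine library 25_27). Ccl2 overlaps the gene model Gm17268 and Ccl6 overlaps E230016K23Rik, so a part of their reads may be shared. The same holds for Cxcl16, which overlaps Zmynd15, and for Cxcr6, which overlaps Fyco1.

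The neutrophil attractants Cxcl1 and Cxcl2 were highest in the same libraries of each group as Ccl2, which were 10_12 and 23_28. Cxcl1 had 320, 718, 137, 375 and 205 CPM with glutamine, against 503, 246, 246 and 569 CPM with HFD alone (-0.18 ± 0.408; 0.023 and 0.057 without library 13_15 or 23_28). Cxcl2, the second of the genes with the shared kB-type letters, had 84.2, 227, 51.1, 129 and 47.3 CPM with glutamine, against 192, 94.3, 116 and 225 CPM with HFD alone (-0.57 ± 0.421). Glutamine library 10_12 was the highest of all 9 for both and library 13_15 or 25_27 the lowest. Cxcl3, whose window holds the same letters, was detected at 7.49 CPM in glutamine library 18_20 and reached 100 counts in no other adipose library. Of the CXCR3 ligands, which call in T cells after interferon, Cxcl10 had 119, 269, 59.1, 130 and 92.6 CPM with glutamine, against 202, 155, 87.7 and 131 CPM with HFD alone (-0.13 ± 0.369; 0.056 and 0.069 without library 13_15 or 1_3). Cxcl9 had 23.6, 31.9, 67.2, 59.5 and 165 CPM with glutamine, against 34.3, 49.0, 79.6 and 46.4 CPM with HFD alone (0.39 ± 0.475; -0.21 without glutamine library 25_27). These 2 neighbours on chromosome 5 did not share their high library, which was 10_12 for Cxcl10 and 25_27 for Cxcl9. Cxcl10 overlaps Art3, and a part of its reads may be shared.

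Cxcl14 was the only gene with an unadjusted p under 0.05 that was higher with glutamine. It encodes a chemokine of epithelia and fibroblasts, on chromosome 13 from 56288643 to 56296551. Cxcl14 had 19.8, 12.7, 28.4, 26.9 and 431 CPM with glutamine, against 29.0, 6.05, 19.8 and 12.5 CPM with HFD alone. A single library, 25_27, held the difference: the log2 fold change was 2.61 ± 0.976 with it and 0.38 without it. The same library had the highest Cxcl13, a B cell attractant, which had 1.45, 4.75, 1.21, 0.499 and 73.6 CPM with glutamine, against 6.65, 12.8, 1.99 and 0.0661 CPM with HFD alone. In that library mesothelial markers summed to 2.58 CPM, against 391 to 599 CPM in the other 4 glutamine libraries and 221 to 467 CPM in the HFD libraries. Its adipose progenitor markers were the highest of the 9, at 4414 CPM. Their part in the 2 values was not tested.

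Among the other ligands, Ccl11, an eosinophil attractant made by stromal cells, had 24.6, 53.7, 8.13, 52.3 and 56.7 CPM with glutamine, against 60.2, 28.8, 26.3 and 154 CPM with HFD alone (-0.82 ± 0.576). Without HFD library 23_28 the fold change of Ccl11 was -0.00495. Ccl22, a ligand of CCR4 made by dendritic cells, had 2.29, 2.07, 0.663, 0.541 and 1.33 CPM with glutamine, against 6.70, 7.42, 0.949 and 25.5 CPM with HFD alone (-2.91 ± 1.08; -1.90 without HFD library 23_28). Ccl22 was singled out after its values were seen. Only HFD library 14_17 lay among the glutamine libraries. Pf4, a chemokine of platelets that macrophages also express, had 29.5, 71.1, 20.8, 19.0 and 87.3 CPM with glutamine, against 73.5, 47.9, 49.9 and 187 CPM with HFD alone (-1.005 ± 0.515; -0.35 without HFD library 23_28). Cxcl16, a membrane-bound ligand of CXCR6, had 57.1, 51.1, 45.8, 49.4 and 42.5 CPM with glutamine, against 49.3, 54.2, 50.8 and 20.0 CPM with HFD alone (0.16 ± 0.305; -0.088 without HFD library 23_28). HFD library 23_28, high for so many of the other genes, was the lowest for Cxcl16.

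Genes that act with chemokines were taken from lists of their pathway. None of their members was called in adipose with glutamine. Of all genes tested there, 51.4% had a fold change below 0 and 4.13% an unadjusted p under 0.05. In the list of signalling proteins below the receptors, 18 of 25 measured genes (72%) had a fold change below 0 and 2 (8%) an unadjusted p under 0.05. These were Rac2, a GTPase of blood cells, at -0.90 ± 0.321, and Rgs1, a brake on G protein signalling, at -1.33 ± 0.502. In the list of NF-kB and its inducers 8 of 12 (66.7%) were below 0 and 2 (16.7%) had an unadjusted p under 0.05. Among those below 0 were the cytokine gene Il1b at -2.00 ± 0.674 and the feedback inhibitor Tnfaip3 at -1.20 ± 0.415. The other 4 were above 0, up to Nfkb2 at 0.58. Of 8 genes of glycosaminoglycan presentation, which holds chemokines at cell surfaces, 7 (87.5%) were below 0, with Sdc3 at -1.22 ± 0.544. Of the interferon list 3 of 5 (60%) were below 0, near the share of all genes, and of the XC family and related receptors 4 of 6 (66.7%), with Gpr35 at -2.65 ± 1.18.

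**Figure D3:**
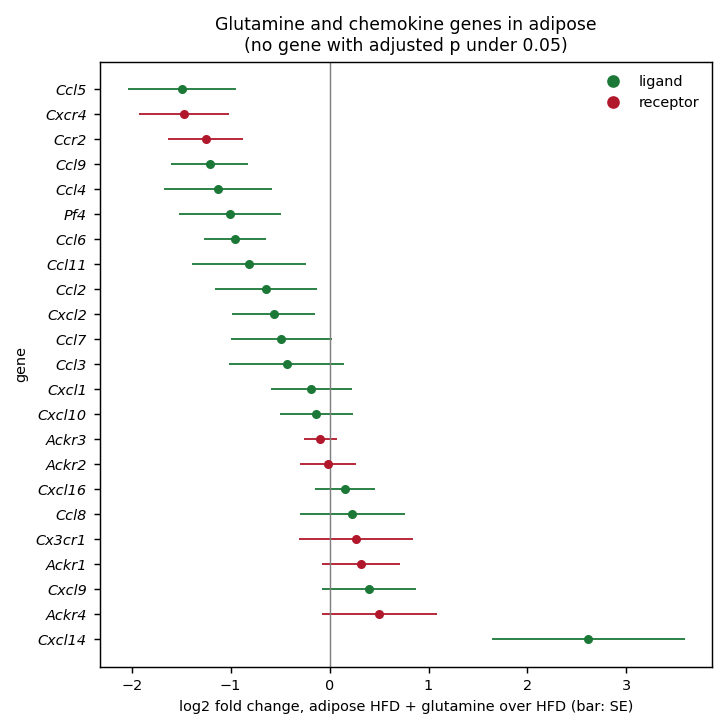
Log2 fold change of HFD + glutamine over HFD in adipose (x axis, with SE as bars) for 23 genes with 100 counts in each adipose library, ligands in green and receptors in red. 16 of the 23 lie below 0, from Ccl5 at -1.49, and Cxcl14 at 2.61 stands apart above 0.

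In bone marrow most of the detected transcripts were high in 1 or 2 libraries and near 0 in the rest. Of the 19 genes that reached 100 counts, 8 did so in exactly 1 library and 14 in 1 or 2. The library with the most of a gene held a median of 29.1% of its summed CPM over the 9 libraries for the 49 genes detected in adipose, against 83.2% for the 19 in bone marrow. These shares were not computed over all genes. Wide spread was general in bone marrow: the square root of the dispersion had a median of 182% over all genes tested there. Over the tested chemokine and receptor genes it was 179%. Glutamine library 18_20 had 13 genes at 100 counts or more, and the other 8 libraries had between 2 and 6. That library also had the most genes of any kind at that mark in bone marrow, 7323. The fewest were 1755, in HFD library 23_28, against 11361 to 14469 in the adipose libraries.

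Ackr4 and Cxcl14 were the most widely found in bone marrow. Ackr4 had 0.560, 938, 249, 21.1 and 0.770 CPM in the glutamine libraries 4_6, 10_12, 18_20, 25_27 and unnumbered, against 137, 10.1, 0.321 and 266 CPM in the HFD libraries 1_3, 5_11, 14_17 and 23_28. Levels differed by over 100-fold within each group, and Ackr4 overlaps Acad11 on the opposite strand, which cannot be told apart when the strand setting is not given. Cxcl14 had 250, 54.1, 297, 1.69 and 124 CPM with glutamine, against 913, 149, 13.0 and 1.29 CPM with HFD alone. Ackr3 had 2.41, 56.4, 11.0, 2.24 and 2.43 CPM with glutamine, against 24.5, 1.96, 114 and 2.58 CPM with HFD alone. Groups overlapped for all 3.

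Ccl3, Ccl4 and Ccl6 were each high in 2 or 3 bone marrow libraries. Ccl3, a macrophage chemokine, had 212, 1.00, 164, 0.748 and 0.415 CPM with glutamine, against 0.105, 0.0863, 0.107 and 0.149 CPM with HFD alone. Every glutamine library lay above every HFD library, but 2 of the 5 held nearly all of the signal and the HFD libraries had 3 or 4 counts each. Ccl4, its neighbour, had 0.129, 0.143, 46.4, 0.0976 and 0.118 CPM with glutamine, against 0.184, 192, 0.0714 and 0.0993 CPM with HFD alone. The 2 neighbours thus shared only glutamine library 18_20 as a high library. Ccl6 had 0.215, 0.931, 49.1, 0.423 and 273 CPM with glutamine, against 0.632, 59.4, 4.29 and 0.447 CPM with HFD alone.

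Ccl2 had 0.990, 1.72, 15.8, 1.01 and 1.18 CPM with glutamine, against 208, 0.777, 1.00 and 0.844 CPM with HFD alone. Cxcl9 was likewise high in HFD library 1_3 only, with 0.301, 0.573, 0.353, 0.228 and 0.355 CPM with glutamine, against 194, 0.259, 0.536 and 0.497 CPM with HFD alone. Cxcr2, the neutrophil receptor for CXCL1 and CXCL2, was also highest in that library, at 124 CPM. It had 21.5 CPM in glutamine library 18_20 and at most 0.215 CPM in the other 7. Cx3cl1, the membrane-bound ligand fractalkine, had 25.7, 0.429, 0.128, 313 and 0.0592 CPM with glutamine, against 0.711, 0.144, 220 and 0.199 CPM with HFD alone. Cxcr4 had 0.0430, 0.286, 52.5, 0.163 and 0.118 CPM with glutamine, against 0.0527, 0, 0.0714 and 25.2 CPM with HFD alone. Nearly all counts of each of these 5 genes thus came from 1 to 3 libraries.

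Of 12 genes that passed the filter in bone marrow, 0 were called with glutamine, against 8 of 6041 genes tested (0.132%), and 2 had an unadjusted p under 0.05 (16.7%, against 18.7% of all). The 2 were Ccl3 at a log2 fold change of 8.25 ± 3.29 and Cxcl9 at -6.82 ± 2.62 (edgeR adjusted p = 0.197 for each). Ccl3 was the only 1 of the 12 without overlap, against 3.53% of all genes without overlap and higher with glutamine. DESeq2 called Ccl3 (adjusted p = 0.000202, where the alternatives ranged up to 0.419), limma-voom called 0, and a fit of all 18 libraries together called 6: Ccl3, Ccl5, Ccr1 and Cx3cr1 higher and Ccl27a and Cxcl9 lower. Without HFD library 1_3, Cxcl9 was at -1.19. The fold change of Ccl2 was -3.89 ± 2.36 (adjusted p = 0.391; 0.95 without HFD library 1_3), and that of Ccl6 was 2.61 ± 2.57 (adjusted p = 0.700; -1.10 without the unnumbered glutamine library).

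Most of the tested genes were higher in adipose than in bone marrow. In a fit of all 18 libraries, 36 of 45 genes that passed the filter were called, 32 higher in adipose (71.1%) and 4 lower (8.89%), against 40.5% higher and 11.2% lower of 15203 genes (51.7% called in all). A gene that passed this filter through its adipose level alone had to differ, so the counts describe the tested genes. Adipose and bone marrow libraries also differed in isolation, and their counts were deposited apart. A call between tissues therefore cannot be told from an effect of isolation or processing, here and in the tissue comparisons below. Bone marrow libraries had 1755 to 7323 genes at 100 counts or more, against 11361 to 14469 in adipose. The part of this gap in the calls was not tested. Of the 45, 17 had no overlap and were higher in adipose, against 16% of all genes. Under relative log expression factors 15 of the 45 were called higher and 6 lower. The median log2 fold change of all genes moved with the scaling, 1.43 with TMM, -1.94 with relative log expression and -0.89 with upper-quartile factors. The number of the 45 genes above that median was 35, 35 and 36 in this order of factors.

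Called higher in adipose in the fit as reported and under each of the 30 alternatives were 8 genes: Ackr1, Ackr2, Ccl7, Ccl8, Ccl9, Cxcl1, Cxcl10 and Pf4. The alternatives refit the same libraries. Of the 8, Ackr2, Ccl8, Ccl9 and Pf4 were under 10 counts in every bone marrow library, and only Cxcl1 reached 100 in any. Genes this low in bone marrow passed the filter through adipose, so keeping the call adds no separate support. The neutrophil attractant Cxcl1 ranged from 137 to 718 CPM in adipose and from 0.947 to 6.51 CPM in bone marrow (log2 fold change 5.91 ± 0.864). Ccl7 ranged from 39.9 to 268 CPM in adipose and from 0.149 to 0.689 CPM in bone marrow (6.38 ± 0.913). Cxcl10 ranged from 59.1 to 269 CPM in adipose and from 0.215 to 0.716 CPM in bone marrow (6.26 ± 0.895). Pf4, which platelets store, ranged from 19.0 to 187 CPM in adipose and from 0.118 to 0.286 CPM in bone marrow (6.34 ± 0.854). Bone marrow HFD library 5_11, with megakaryocyte and platelet markers at a sum of 384 CPM, had Pf4 at 0.201 CPM. Of the 6 markers in that sum 3 were under 10 counts in every bone marrow library. The part of platelets in the Pf4 levels was not tested. Ccl9 ranged from 14.1 to 110 CPM in adipose and from 0 to 0.358 CPM in bone marrow (6.22 ± 0.892). The adipose range lay wholly above the bone marrow range for each of these 5. With relative log expression factors their fold changes were lower, between 2.33 and 2.59. The median bone marrow library of the 5 stood at 0.329% to 0.390% of the adipose mean, and whether these counts came from bone marrow RNA or from reads of the adipose libraries was not tested.

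Lower in adipose were Ackr4 at -4.40 ± 1.29, Cxcl14 at -3.97 ± 1.14, Cx3cl1 at -5.41 ± 1.74 and Cxcr2 at -5.06 ± 1.74 (edgeR adjusted p from 0.00676 to 0.0199). Each of the 4 overlapped between the tissues. None kept the call under each of the 30 alternatives: Ackr4 and Cxcl14 kept it in 26, Cx3cl1 in 23 and Cxcr2 in 21. All 4 calls were lost with limma-voom, with the replicate block and with bone marrow counts under 100 set to 0, only Cxcl14 was called in the HFD arms alone and only Ackr4 in the glutamine arms alone. Leaving out 1 bone marrow library ended the call of Cx3cl1 (-1.41 without HFD library 14_17) and of Cxcr2 (-2.70 without glutamine library 18_20 and -0.71 without HFD library 1_3). Cxcr2 has its place on neutrophils, whose markers were high in bone marrow. The highest neutrophil sum, 54233 CPM, was in HFD library 23_28, where Cxcr2 was at 0.0497 CPM. The part of neutrophils in the Cxcr2 difference was not tested. Ccl6, at -0.012 ± 1.17, did not pass the test, nor did Cxcl2, at 2.44 ± 1.12 (adjusted p = 0.0721). Ackr3 at 3.03 ± 0.892 and Ccl2 at 2.82 ± 1.07 were called higher in adipose, but relative log expression factors put them at -0.86 and -0.33. Cxcl13 was higher in adipose at 6.22 ± 1.30, with at most 2 counts in a bone marrow library and 3473 counts in adipose glutamine library 25_27. The tissues overlapped, and the call was lost with relative log expression factors and with limma-voom.

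Genes of the pathway lists were called in both directions, beside 40.5% higher and 11.2% lower in adipose of all genes tested. In adipose 4 of 6 of the XC family and related receptors (66.7%) were higher. Of these 6, 3 were under 10 counts in every bone marrow library. A gene that passed the filter through its adipose level alone had to differ, so the shares of these lists are only descriptions. The share called higher was below that of all genes in the other lists, with 6 of 25 signalling genes (24%), 2 of 12 of the NF-kB list (16.7%), 1 of 8 glycosaminoglycan genes (12.5%) and, close to it, 2 of 5 of the interferon list (40%). Called lower were 4 of the signalling genes (16%) and 1 in each of the NF-kB, interferon and glycosaminoglycan lists. Tnf and Il6 were the NF-kB inducers that were higher, and Il1b the one that was lower, at -3.93 ± 1.42. Gpr35, a receptor linked to CXCL17 in some reports, was higher at 7.82 ± 1.33.

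**Figure D4:**
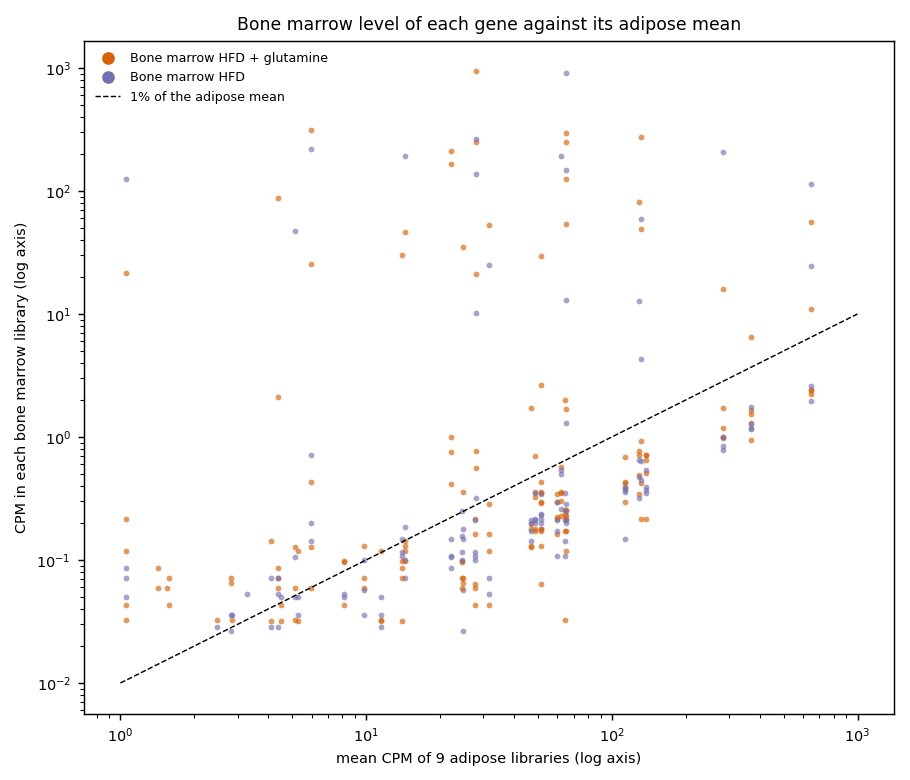
CPM of 43 genes in each bone marrow library (y axis, log) against their mean CPM over 9 adipose libraries (x axis, log, from 1 CPM), glutamine in orange and HFD in purple. Of 285 points 102 lie over the dashed line at 1% of the adipose mean, 102 further values at 0 are not drawn, and the lower points follow the line's slope.

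Low values in bone marrow went along with the level in adipose, as the plot of bone marrow against adipose levels shows. For 22 genes with an adipose mean of at least 20 CPM, the median bone marrow library stood at a median of 0.388% of the adipose mean, with 0.290% the lowest. For 19 of the 22 (86.4%) it was at most 1%, against 50.7% of 7087 genes at that adipose level. Ackr3, Cxcl1 and Ccl2, the 3 highest in adipose, had lowest bone marrow values of 1.96, 0.947 and 0.777 CPM. Whether these low counts came from bone marrow RNA or from reads of the adipose libraries was not tested, so they are not read as expression in bone marrow.

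The difference of the glutamine effect between the tissues was tested in the fit of all 18 libraries. Of the 45 genes 3 were called (6.67%), 2 lower and 1 higher, against 11.9% of all genes (7.87% lower and 4.05% higher). Ccl3 and Ccr1, a receptor of macrophages and neutrophils for CCL3, had a lower effect in adipose than in bone marrow, at -9.44 ± 2.40 and -8.49 ± 2.58 (edgeR adjusted p = 0.0432 and 0.0437). Cxcl9 had a higher one, at 7.33 ± 2.22 (adjusted p = 0.0437). Ccr1 in bone marrow had 0.0861, 0.0716, 88.1, 2.11 and 0.0592 CPM with glutamine, against 0.0527, 0.0288, 0.0714 and 0 CPM with HFD alone, and in adipose it ranged from 0.0975 to 8.03 CPM with glutamine and from 0.112 to 9.36 CPM with HFD alone. The 3 calls rest on the bone marrow libraries described above, where the HFD level of Ccr1 comes from at most 2 counts per library. With any of the 9 adipose libraries left out 0 genes were called, as without bone marrow HFD library 1_3, 14_17 or 23_28. DESeq2, limma-voom and a fit with the number pair as replicate block each called 0, and 7 of the 45 had an unadjusted p under 0.05 (15.6%, against 27.5% of all genes).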

How the data were processed

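Adipose and bone marrow RNA of male mice (30 ng for each library) was sequenced as 3′ tags, and read 2 was not used, per the labels' protocols. The deposited tables hold raw counts per gene, made by the authors with STAR 2.7.10b and HTSeq 0.11.3 on GRCm38 after FastQC 0.12.1, per the submitters' processing notes. For the annotation, the strand setting and duplicate reads, the settings are not stated, so counts may hold several reads of 1 molecule. Positions are 1-based and come from GENCODE M21. The members and lists were chosen with earlier results of these data known. 1 gene of the family was left out of every count, and 1 more is in the counts but is not reported here.

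The glutamine effect was tested within each tissue (9 libraries) in R 4.3.3 with edgeR 4.0.16, by a two-sided quasi-likelihood F test after filterByExpr and TMM scaling. Adjustment was by Benjamini-Hochberg over all genes tested, with calls at an adjusted p under 0.05. The tissues and the difference of effects were tested in 1 fit of all 18 libraries. The SE of a log2 fold change is its size divided by the square root of F. Alternatives were other scalings and filters, DESeq2 1.42.0, limma-voom 3.58.1, a replicate block, and leaving out each library. Genes were named if their mean was at least 20 CPM in a group, or if called with glutamine or in the difference of effects. Those with the smallest p for glutamine and those with the largest called changes between tissues were named too. Named genes are given by their values per library, but some in a tissue only by a range or by single values. The bone marrow column with an unmatched number pair was placed in its arm by its prefix. The tests were checked on simulated counts with the same spread for every gene. That spread was smaller than in the real libraries, above all those of bone marrow, so the check does not cover them.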

Additional observations from a re-analysis of the deposited data

Results flagged for a closer look

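In 34 of 108 groups of a named gene, 1 library lay far from the others of its group, with a gap to the nearest above the 95% critical value of Dixon's ratio. Chance would give this in about 1 in 20 groups of independent, normally distributed values. CPM of genes that share libraries are not such values, so the count is only a description. Of the 34 values 5 were in adipose and 29 in bone marrow.

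In adipose, HFD library 23_28 was the highest for Ccr2 at 183 CPM, where the next library had 75.9, and the lowest for Cxcl16 at 20.0 CPM, where the next had 49.3. Glutamine library 25_27 stood out for Cxcl13 at 73.6 CPM and Cxcl14 at 431 CPM. HFD library 1_3 stood out for Cxcr2 at 6.89 CPM.

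Among bone marrow glutamine libraries, 18_20 stood out for 8 genes: Ccl2 at 15.8 CPM, Ccl4 at 46.4 CPM, Ccl5 at 34.8 CPM, Ccr1 at 88.1 CPM, Cxcl1 at 6.51 CPM, Cxcl2 at 82.0 CPM, Cxcr2 at 21.5 CPM and Cxcr4 at 52.5 CPM. Library 10_12 stood out for Ackr3 at 56.4 CPM, Ackr4 at 938 CPM, Ccr2 at 2.00 CPM and Cxcl16 at 1.72 CPM. Library 25_27 did so for Ccl11 at 29.6 CPM and Cx3cl1 at 313 CPM, and the unnumbered library for Ccl6 at 273 CPM and Cxcl13 at 0.118 CPM.

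Among bone marrow HFD libraries, 1_3 was the highest for Ccl2 at 208 CPM, Cxcl14 at 913 CPM, Cxcl9 at 194 CPM, Cxcr2 at 124 CPM and Cxcr6 at 0.211 CPM. Library 5_11 was the highest for Ccl4 at 192 CPM and Ccl6 at 59.4 CPM, and library 14_17 for Cx3cl1 at 220 CPM and Cxcl2 at 12.9 CPM. Library 23_28 was the highest for Ackr1 at 0.348 CPM and Cxcr4 at 25.2 CPM and the lowest for Ccl7 at 0.149 CPM and Ccl9 at 0 CPM. Values under 1 CPM rest on few counts.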

How the results depend on the processing

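Calls in adipose were 0 under all 18 alternatives. In bone marrow the count of 0 became 1 with DESeq2 and 6 in the joint fit. Of the tissue calls, 36 as reported, there were 21 with relative log expression factors, 20 with upper-quartile factors, 17 with DESeq2 and 19 with limma-voom. The 3 calls of the difference became 0 with relative log expression and with upper-quartile factors, DESeq2, limma-voom, the replicate block, and counts under 100 set to 0, and 5 with a stricter count filter. Leaving out 1 library gave 0 to 4. The labels do not say what the number pairs shared by both tissues stand for. Over 8 pairs the correlation of deviations lay between -0.00906 and 0.0302, and 2 of 8 samples correlated best with their own number, which does not show whether they came from the same mice. With the replicate block 33 tissue calls and 0 calls of the difference were found.

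Some log2 fold changes turned their sign, and the cause was not tested. In adipose, Ackr2 was 0.046 with upper-quartile factors and 0.13 with limma-voom, Ccl8 was -0.084 with limma-voom, and Cxcl16 was -0.027 in the joint fit. With HFD library 23_28 and also glutamine library 25_27 left out, chosen after seeing the data, Ccl2 was 0.094, Ccl7 0.23, Cxcl1 0.20, Cxcl9 -0.26, Cxcl16 -0.033 and Cxcr6 0.38. Leaving out 1 library gave -0.19 to 0.24 for Ackr2, -0.81 to 0.39 for Ccl3, -0.89 to 0.11 for Ccl7, -0.15 to 0.55 for Ccl8, -0.61 to 0.057 for Cxcl1, -0.54 to 0.069 for Cxcl10, -0.088 to 0.30 for Cxcl16, -0.21 to 0.64 for Cxcl9 and -0.83 to 0.071 for Cxcr6. In bone marrow this gave -4.98 to 0.95 for Ccl2 and -1.10 to 4.98 for Ccl6, and Ccl6 was -1.54 without HFD library 23_28 and the unnumbered library together. Between tissues, Ackr3 was -0.86 with relative log expression factors and DESeq2 and -0.83 with upper-quartile factors, and with relative log expression factors and DESeq2 Ccl2 was -0.33 with each and Cxcl2 -0.037 and -0.039. Ccl6 was 3.07 with limma-voom, 1.63 in the HFD arms alone, 4.44 with the replicate block, 3.06 with bone marrow counts under 100 set to 0, 1.71 without both thin libraries (HFD 23_28 and unnumbered), and -0.27 to 1.90 with 1 library left out. A value that rests on few counts has a large counting error.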
